A study of Mus musculus with 4 samples.

Results

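Egr1, Egr2 and Egr3 are early growth response transcription factors, and Nab1 and Nab2 are the corepressors that bind them. These 5 genes, of 28095 gene names on the array, were followed in LSK cells (bone marrow cells that lack lineage markers and carry Sca-1 and Kit, the compartment of hematopoietic stem and early progenitor cells) with and without the homeobox gene Meis1. They were taken by gene name, as every non-control probe so named, which gave 7 of 41174 probes: 1 each for Egr1, Egr2 and Nab2, and 2 each for Egr3 and Nab1. The family was picked out because of its lower values in Meis1-deficient cells. The difference between genotypes is therefore given here as a description, without a test.

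The study asked which genes change in LSK cells when Meis1 is deleted. Deficient cells (Meis1-KO) came from mice with a floxed exon 8 of Meis1, which encodes part of the DNA-binding homeodomain, and an Mx1-Cre transgene, and control cells (Meis1-WT) from mice that the labels call wild type and the series' design text Meis1 fl/fl, all on a C57BL/6J background and 4 to 8 weeks old. The labels state 4 intraperitoneal injections of poly(I:C), at 1.5 µg per g body weight and 1-day intervals, while the methods for the arrays call the controls sham-treated, so the sources differ on what the controls received. RNA was collected 1 week later from 2 pools of 6 mice per genotype, and 10 ng of each was amplified and hybridized to a one-colour Agilent array. Mx1-Cre is switched on by interferon, which poly(I:C) induces, and it acts in many tissues besides blood cells. Each array holds the RNA of a whole LSK pool, so fewer cells of a type and less RNA per cell cannot be told apart.

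Egr factors are zinc-finger proteins whose genes are switched on within minutes of a growth factor or stress signal, through the ERK kinase cascade and the serum response factor, which binds CArG boxes in their promoters. They bind GC-rich DNA around GCGTGGGCG. Nab1 and Nab2 dock on a repression domain that Egr1, Egr2 and Egr3 share and Egr4 lacks, and Nab2 brings in the NuRD chromatin remodelling complex. Nab genes are themselves induced by Egr factors, which closes a negative feedback loop. In blood, Egr1 is known for holding stem cells in quiescence, and Egr1, Egr2 and Nab2 for favouring macrophage over neutrophil fate against the repressor Gfi1.

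Each value is the probe's log2 signal minus the 75th percentile of its own array, so 0 is a probe at that percentile and 1 unit is 2-fold. A probe was called well above background by the flag of the scanner software. Replicate 1 of both genotypes lay on one slide (slide 1) and replicate 2 of both on another (slide 2), scanned apart, so each slide gives its own comparison of a deficient with a control array. Of the 4 arrays, 49.2% to 57.4% of spots were well above background and none was saturated. The second deficient array was the dimmest, with a 75th percentile of 90.1 intensity units against 147 to 154 on the other arrays. All 6 LSK and stem cell markers were well above background on all 4 arrays, and of the 4 T cell genes Cd3e and Cd3g were so on none, Cd4 on 1 and Cd8a on 3. Both Meis1 probes were lower in the deficient cells on each slide. Probe A_52_P670612 differed by -0.997 ± 0.436 (standard error) on the log2 scale, and A_52_P26195, which 1 of the 2 deficient arrays measured and which entered the test through the control arrays, was at least 2.93-fold lower (means -3.001 and -1.305, limma, adjusted p = 0.983 for each). Where the probes lie relative to the deleted exon was not analysed here. Across the 22007 probes tested, 132 were lower and 30 higher in deficient cells at an unadjusted limma p under 0.01 and more than 2-fold, 0.736% in all. In this fit on genotype alone no probe had an adjusted p under 0.05, while 618 had an unadjusted p under 0.05. With the slide as a block in the limma fit, 50 probes had an adjusted p under 0.05. The median difference over all tested probes was 0.082.

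The sequences below are 30 bases of each 60-base probe, shown so that the transcript stretch behind each value can be seen. Positions are the mm9 coordinates of the array files.
Egr2 A_51_P173043, chr10:67004758-67004817, plus strand, bases 1 to 30: gtagccaaatttcaggtgagaatgtgcttc
Egr3 A_51_P437198, chr14:70478827-70478886, plus strand, bases 1 to 30: tccttccaactggtgccaggacaacatcat
Egr3 A_52_P440836, chr14:70481979-70482038, plus strand, bases 1 to 30: tgcactctaacttatgtgaactgagagaaa
Nab1 A_52_P301724, chr1:52514174-52514233, minus strand, bases 1 to 30: attgtgtgaattctgcatttttgtgattcc
Nab1 A_52_P318438, chr1:52515132-52515191, minus strand, bases 1 to 30: gctttagatcatgctgttatagatatgagt
Nab2 A_52_P183138, chr10:127097981-127098040, minus strand, bases 30 to 59: ttgttattttggAATAAAatttattttatg
The capitals mark AATAAA, the hexamer that commonly signals polyadenylation, which no other of the 7 probes holds. The second Egr3 probe was designed on a cDNA clone that the gene table used here does not pair with a symbol, and it keeps the name given in the array files. Exon and intron positions of the probes were not analysed here.

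Egr1, an immediate early factor linked to stem cell quiescence, differed between genotypes on only one of the slides. Its probe A_51_P367866 lies on the plus strand at chr18:35024395-35024454 (mm9). Its values were 8.00 and 7.07 on control arrays 1 and 2, and 7.93 and 5.02 on deficient arrays 1 and 2. Both control arrays and the first deficient array were thus high, and the second deficient array alone was low. On slide 1 the deficient array lay below the control array by a factor of 1.05, and on slide 2 by a factor of 4.14. The genotype means were 6.48 ± 2.06 (SD, n = 2) and 7.54 ± 0.66 (SD, n = 2), a log2 difference of -1.06 that was smaller than the distance of 2.91 between the 2 deficient arrays. The groups overlapped, since the first deficient array was above the second control array, and without deficient replicate 2 the difference became 0.39. All 4 arrays measured the probe well above background, at signals from 2939 to 37620 intensity units.

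Egr2, the family member whose product also drives myelination and restrains T cells, was lower in deficient cells on both slides. Its values were 2.30 and 0.63 on the control arrays and 0.10 and -5.29 on the deficient arrays, the last not well above background. Both deficient arrays lay below both control arrays. On slide 1, where both arrays measured it, the control array was 4.59-fold brighter. On slide 2 the control array was at least 14.7-fold brighter, taking the lowest signal of any probe well above background on the deficient array as the limit there. The genotype means were -2.59 ± 3.81 (SD, n = 2) and 1.47 ± 1.18 (SD, n = 2), and the log2 difference of -4.06 contains the deficient array that was below the limit. With that limit in place of the dim value, both slides together gave at least an 8.22-fold difference. Without deficient replicate 2, the dim array, the log2 difference was -1.36. With the normexp background correction, which adds an offset of 50 to every signal, the log2 difference was -1.81.

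The Egr2 probe was printed 10 times on every array, which shows how far its value depends on single spots. Processed signals ran from 674 to 792 with a median of 721 on control array 1, and from 221 to 264 with a median of 236 on control array 2. On deficient array 1 they ran from 152 to 169 with a median of 158, and on deficient array 2 from 1.95 to 2.63 with a median of 2.42. No spot of one array overlapped a spot of another. The coefficient of variation over the 10 spots was 4.02% to 6.04% on the arrays that measured the probe and 10.5% on deficient array 2, where 0 of 10 spots were well above background. Before background subtraction, the spots on deficient array 2 had a mean brightness of 59.3 against a local background of 52.5, and their processed signals around 2.32 are not measured levels. Spots of one array share 1 RNA pool and are not replicates of the genotype.

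**Figure D1:**
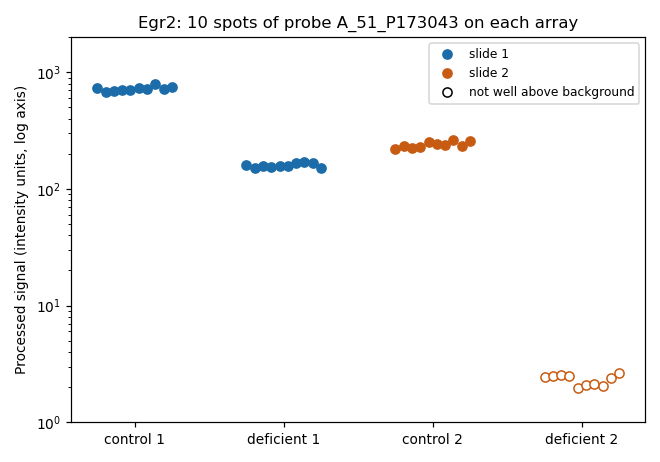
Processed signal in intensity units (log axis) of the 10 spots of the Egr2 probe on each array, blue for slide 1 and orange for slide 2, with open circles where the spots were not well above background. The spots of each array form a tight, separate band, with medians of 721 and 158 on slide 1 and 236 and 2.42 on slide 2 (control, then deficient).

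Egr3, a relative of Egr2 that shares functions with it in lymphocytes, was measured by 2 probes, and both were lower in deficient cells on each slide. Probe A_52_P440836 gave 0.020 and -1.82 on the control arrays and -2.19 and -5.35 on the deficient arrays, with only the last not well above background. Probe A_51_P437198 gave -1.98 and -2.77 on the control arrays and -4.22 and -5.44 on the deficient arrays, neither of which was well above background. For each probe, both deficient arrays lay below both control arrays. On slide 1 the control array was 4.62-fold brighter for A_52_P440836, beside 4.59-fold for Egr2 on that slide. For A_51_P437198 the limit there was 4.66-fold, but it rests on a deficient array that did not measure the probe and is not a strict minimum. Before background subtraction, this probe had a brightness of 111 on the control and 78.1 on the deficient array, over a local background of 62. On slide 2 the limits were 2.70-fold for A_52_P440836 and 1.39-fold for A_51_P437198. Over both slides, A_51_P437198 was at least 2.55-fold lower in deficient cells (means -4.83 ± 0.86 and -2.38 ± 0.56, SD, n = 2 each), and A_52_P440836 at least 3.53-fold lower (means -3.77 ± 2.23 and -0.90 ± 1.30, SD, n = 2 each). The probes were dim even in control cells, with signals of 22.5 to 149 intensity units, and with the normexp background correction the log2 differences shrank to -0.056 for A_51_P437198 and -0.59 for A_52_P440836.

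**Figure D2:**
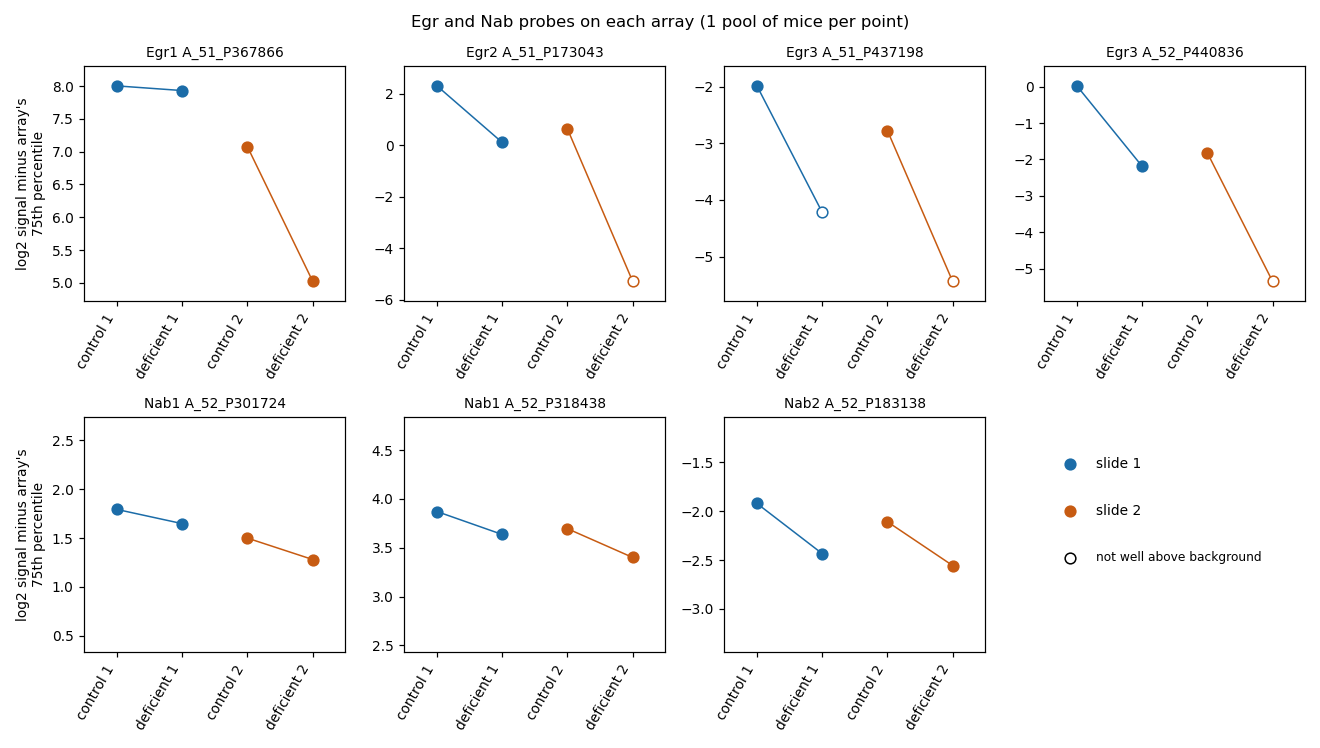
Value of each Egr and Nab probe on each array, as log2 signal minus the array's 75th percentile, with lines joining the control and the deficient array of a slide and open circles where the probe was not well above background. Axis ranges differ between panels. By recorded signal every line falls from control to deficient, steeply for Egr2 and Egr3 on both slides and by at most 0.51 for the Nab probes. Egr1 falls steeply on slide 2 only (8.00 to 7.93 on slide 1, 7.07 to 5.02 on slide 2). The slide 2 falls of Egr2 and Egr3 end at deficient values that were not measured, and for Egr3 A_51_P437198 the limit there was only 1.39-fold.

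The corepressors differed less between genotypes than Egr2 and Egr3 did on slide 1, by at most 0.51 on the log2 scale. Nab1, a corepressor present in most tissues, gave 3.87 and 3.70 on the control arrays and 3.64 and 3.40 on the deficient arrays with probe A_52_P318438. With probe A_52_P301724 it gave 1.79 and 1.50 on the control arrays and 1.65 and 1.28 on the deficient arrays. The deficient arrays lay below both control arrays for the first of these probes, and overlapped the control range for the second. The log2 differences were -0.26 and -0.18, beside SDs of 0.12 to 0.26 within genotypes (n = 2), and the second became 0.0015 without deficient replicate 2.

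Nab2, the corepressor that Egr factors induce, gave -1.92 and -2.11 on the control arrays and -2.43 and -2.56 on the deficient arrays, all well above background though with signals of only 15.4 to 38.7 intensity units. Both deficient arrays lay below both control arrays. The control array was 1.43-fold brighter on slide 1 and 1.36-fold on slide 2, and the log2 difference was -0.48 (SD 0.086 in deficient and 0.13 in control cells, n = 2 each). With the normexp background correction the sign turned, to 0.10.

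All 7 probes were thus lower on both slides in the deficient cells, as were 21.0% of all tested probes. For 5 of the 7, all but Egr1 and Nab1 A_52_P301724, both deficient arrays lay below both control arrays, against 10.9% of tested probes. By recorded signal, the deficient array was under 50% of the control array on both slides for 3 of the 7, the Egr2 probe and both Egr3 probes, against 1.56% of tested probes, but for Egr3 A_51_P437198 the limit on slide 2 was only 1.39-fold. The same difference was used in choosing the genes, so nothing is read from these shares. All 7 probes passed the filter on dim probes, but the Egr2 and Egr3 probes did so only through the control arrays.

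**Figure D3:**
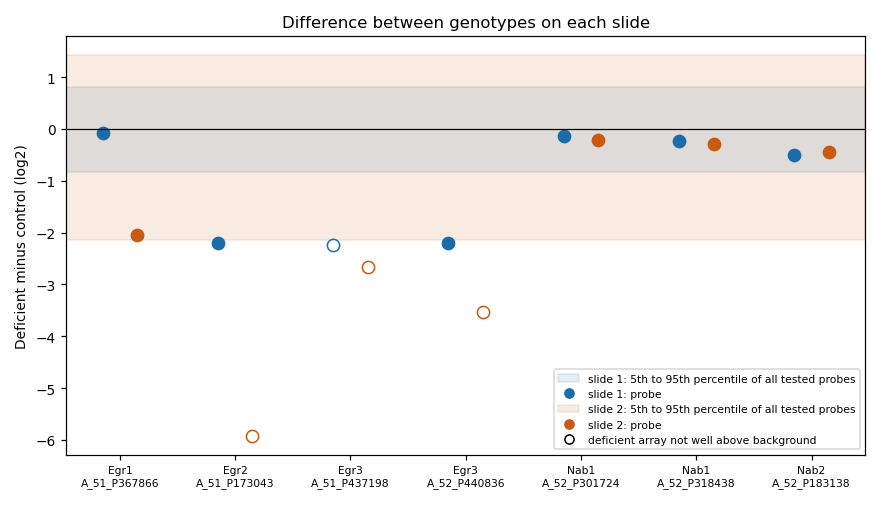
Difference between deficient and control array (log2) for each Egr and Nab probe on slide 1 (blue) and slide 2 (orange), open circles for deficient arrays not well above background, and shaded bands for the 5th to 95th percentile of all 22007 tested probes on that slide. The band is wider on slide 2 (-2.15 to 1.42) than on slide 1 (-0.82 to 0.80), the Nab probes lie inside both, and Egr1 lies inside both at -0.071 and -2.05.

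The 2 arrays of one genotype differed in Egr expression too. By recorded signal, all 7 probes were higher on slide 1 than on slide 2 in both genotypes, as were 26.3% of all tested probes. With dim arrays at their limit this held for 6, the exception being Egr3 A_51_P437198, which neither deficient array measured. In control cells the log2 distance from replicate 2 to replicate 1 was 0.93 for Egr1, 1.67 for Egr2, and 0.79 and 1.84 for the Egr3 probes, while the Nab probes differed by 0.18 to 0.29. In deficient cells it was 2.91 for Egr1, and for Egr2 and both Egr3 probes 1 or both arrays were not well above background, so no distance is given. For Nab1 and Nab2 it was 0.12 to 0.37 there. The 5th to 95th percentile of all tested probes was -1.11 to 1.01 in control and -1.63 to 2.16 in deficient cells, so Egr1 lay inside that range in control cells and outside it in deficient cells.

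Summed levels of some cell type markers moved with the slide in both genotypes, while those of LSK, B lineage, erythroid and plasma cell markers did not. The granulocyte markers, whose cells the sort for lineage-negative cells with antibodies to CD11b and Gr-1 should remove, had a summed level (log2 of the sum, 4 of 5 markers on the array) of 5.12 and 6.16 on slide 1 and 2.09 and 1.77 on slide 2, deficient then control. That sum was carried by S100a9, which gave 6.06 and 1.31 in control cells, while Elane, neutrophil elastase, gave -2.56 and -0.87 on slide 1 and -2.30 and -0.84 on slide 2, lower in deficient cells on both. The monocyte and macrophage markers had 2.88 and 2.51 on slide 1 and 1.36 and 1.27 on slide 2. Of the granulocyte genes 3 were well above background on all 4 arrays, as were 3 of the 4 monocyte and macrophage genes, and Itgam, which encodes CD11b, gave 2.57 and 2.14 on slide 1 and 0.88 and 0.76 on slide 2. The sum of the 3 megakaryocyte markers was instead lower on slide 1, at 2.25 and 2.92 against 3.22 and 4.96 on slide 2, and lower in deficient cells on both slides, a sum carried by the platelet chemokine Pf4, while Gp1bb differed by 0.31 on slide 2. The erythroid sum, carried by the globin gene Hbb-b1, was 6.56 and 6.32 on slide 1 and 7.93 and 4.52 on slide 2, and so highest on the second deficient array, where Egr1 was low. The plasma cell sum was 1.51 and 4.43 on slide 1 and 4.40 and 3.45 on slide 2, carried by Igj, the immunoglobulin joining chain. Sdc1 instead was lower in deficient cells on both slides, at -2.09 and 1.02 on slide 1 and -0.24 and 0.044 on slide 2. Prdm1 was well above background on control array 1 alone. The part of these cell types in the Egr and Nab values was not tested. The slides also differ in scan, and slide and mouse pool cannot be told apart.

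**Figure D4:**
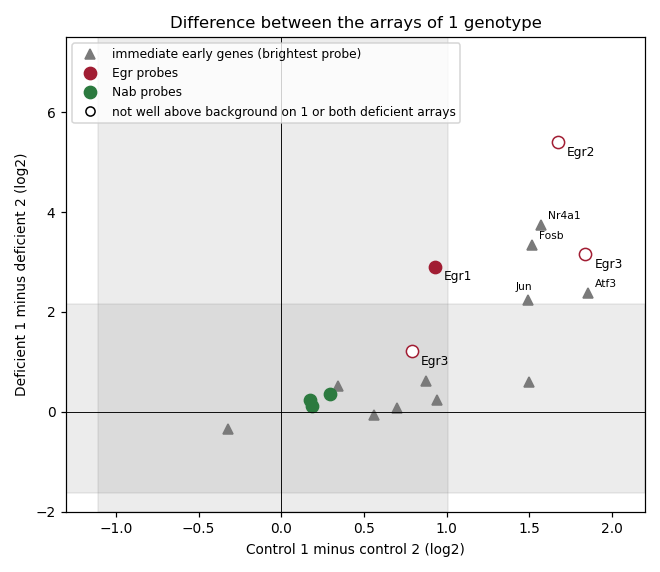
Log2 distance between replicate 1 and replicate 2 in control cells (horizontal axis) and in deficient cells (vertical axis) for the Egr (red) and Nab (green) probes and the brightest probe of each of 11 immediate early genes (grey triangles), with grey bands for the 5th to 95th percentile of all tested probes. Open circles had 1 or both deficient arrays not well above background. The Nab probes sit near the origin, and Egr1 at 0.93 and 2.91 lies near Fosb (1.51 and 3.34) and Nr4a1 (1.57 and 3.74).

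The promoters of Egr2, Nab1 and Nab2 were read for the sites through which the pathway is wired. RefSeq promoter windows (GRCm38.p6, 250 bases before to 50 after a start) matched these genes by symbol, with 5 windows for Egr2 and 1 each for Nab1 and Nab2. On either strand, a CArG box was present in 4 of the 5 Egr2 windows, at 2 distinct places, against 1.63% of 32851 promoters. The Egr site GCGTGGGCG was present at 2 places in the Nab1 window, against 0.612% of promoters. Nab2 held its first 8 letters, GCGTGGGC, which any full site also contains and which 1.63% of promoters held. That shorter form was added after the sequence had been seen. The stretches below show each site in capitals, on the strand of the gene.
Egr2, chr10:67537484-67537513, CArG box: cggatcttctCCTTTTTTGGaaagtctcgg
Egr2, chr10:67537787-67537816, CArG box: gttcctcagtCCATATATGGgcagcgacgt
Nab1, chr1:52500570-52500599, Egr site on the opposite strand: gccccgcggcCGCCCACGCcgggatctgcg
Nab1, chr1:52500538-52500567, Egr site: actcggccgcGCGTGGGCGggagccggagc
Nab2, chr10:127666717-127666746, shorter Egr site on the opposite strand: cccccggttctGCCCACGCcctcctcccgc
Of the motifs that Meis and Pbx proteins are known to bind, TGACAG was present once in the Nab1 window, as in 19.2% of promoters, and TGATTGAC in none of the 7 windows, as against 0.77% of promoters. A match is a stretch of letters and does not show that a factor binds there.

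Beyond the 5 genes, a list of 56 genes of the same pathway was read: relatives, the ERK cascade and its factors, feedback inhibitors, NuRD subunits, reported targets and genes induced beside Egr1. Of these, 54 were on the array by name, with 105 probes, of which 89 were tested. None of the 89 met the criteria in either direction (limma, unadjusted p under 0.01 and more than 2-fold), which 0.600% of all tested probes did for lower and 0.136% for higher values. Unadjusted p was under 0.05 for 2 of the 89, beside 2.81% of all tested probes, and the smallest adjusted p was 0.983. Both, of Spry2 and Thbs1, entered the test only through the control arrays. The median difference over the brightest probe of 49 genes was -0.073, beside 0.082 over all tested probes. With the slide as a block 1 probe met the criteria, that of Thbs1, beside 1.99% of all tested probes, and it did so with a deficient array that did not measure it, so nothing is read from it. Without deficient replicate 1, 9 probes of the list (10.1%) met them for lower and 1 (1.12%) for higher values, beside 7.75% and 2.32% of all tested probes in the same fit. Without control replicate 1, 1 probe of the list met them for lower values (1.12%, beside 0.259%).

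Egr4, the relative that does not bind Nab proteins, gave -0.10 and -2.36 on the control arrays and -1.80 and -3.67 on the deficient arrays, of which 1 was well above background. It entered the test only through the control arrays. It was lower in the deficient array on each slide and at least 2.45-fold lower over both (means -2.74 and -1.23), which did not meet the criteria (limma, adjusted p = 0.983). In both genotypes it was higher on slide 1. Wt1, a zinc-finger factor that recognizes a similar site, was not well above background on any of the 4 arrays and was not tested.

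Upstream of Egr1, 0 of 5 tested genes for serum response and ETS factors and 0 of 6 for the ERK cascade met the criteria, with medians of 0.065 and 0.36. Srf, the serum response factor itself, gave 3.41 and 2.49 on the control arrays and 3.11 and 2.66 on the deficient arrays, a difference of -0.063 ± 0.51. The groups overlapped.

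Of the feedback inhibitors of ERK signalling, Dusp6, an ERK phosphatase, gave 4.62 and 4.61 in control and 4.30 and 4.92 in deficient cells, a difference of -0.0039 ± 0.45. Spry2, a receptor kinase antagonist named after its values were seen, was not well above background on either deficient array with probe A_51_P445153, which was at least 1.13-fold lower there (means -5.06 and -3.56, limma, adjusted p = 0.983). Its probe A_52_P368532, measured on all 4 arrays, differed by -1.44 ± 0.72, of which -0.55 on slide 1 and -2.34 on slide 2.

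The NuRD subunits that Nab2 works with had a median difference of -0.25 over 10 genes, and none met the criteria. Rbbp4, a histone-binding subunit chosen for its bright probe, gave 6.41 and 5.89 in control and 6.46 and 7.12 in deficient cells, a difference of 0.64 ± 0.48 (limma, adjusted p = 0.983). Chd4, the ATPase that binds Nab2 and a gene named after its values were seen, gave 3.34 and 3.49 in control and 3.43 and 0.67 in deficient cells. Like Egr1, it was low only on the second deficient array.

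Among reported Egr targets, 0 of 10 genes met the criteria, with a median of -0.32. Thbs1, an extracellular matrix protein, gave -2.87 and -0.81 in control and -3.49 and -5.21 in deficient cells, where 1 of the 2 arrays was well above background. It entered the test only through the control arrays. It was at least 2.88-fold lower in deficient cells (means -4.35 and -1.84), which did not meet the criteria in the fit on genotype alone (limma, adjusted p = 0.983). Gfi1, the repressor that opposes Egr factors in myeloid cells, gave 3.84 and 2.59 in control and 2.90 and 2.38 in deficient cells, a difference of -0.57 ± 0.57.

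The immediate early genes that are induced together with Egr1 did not share one direction between genotypes. Over 11 genes the median difference was -0.041, with 4 lower and 2 higher on both slides (21.0% and 30.3% of all tested probes) and none meeting the criteria. Zfp36, an mRNA decay factor chosen for its bright probe, gave 8.16 and 7.28 in control and 8.22 and 7.59 in deficient cells, a difference of 0.18 ± 0.52. The genes that follow were named after their values were seen. Fosb and Nr4a1 differed by -0.70 and -0.44 on slide 1 and by -2.52 and -2.61 on slide 2, beside -0.071 and -2.05 for Egr1. Fos, on the other hand, differed by -0.22 and 0.41, and the brightest Junb probe by 0.17 and 0.19. The other Junb probe, A_51_P159201, was lower on both slides, at -0.095 and -0.62, as was Atf3, at -0.55 and -1.08. Of the 11 genes, 9 were higher on slide 1 in both genotypes, as were 26.3% of all tested probes.

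**Figure D5:**
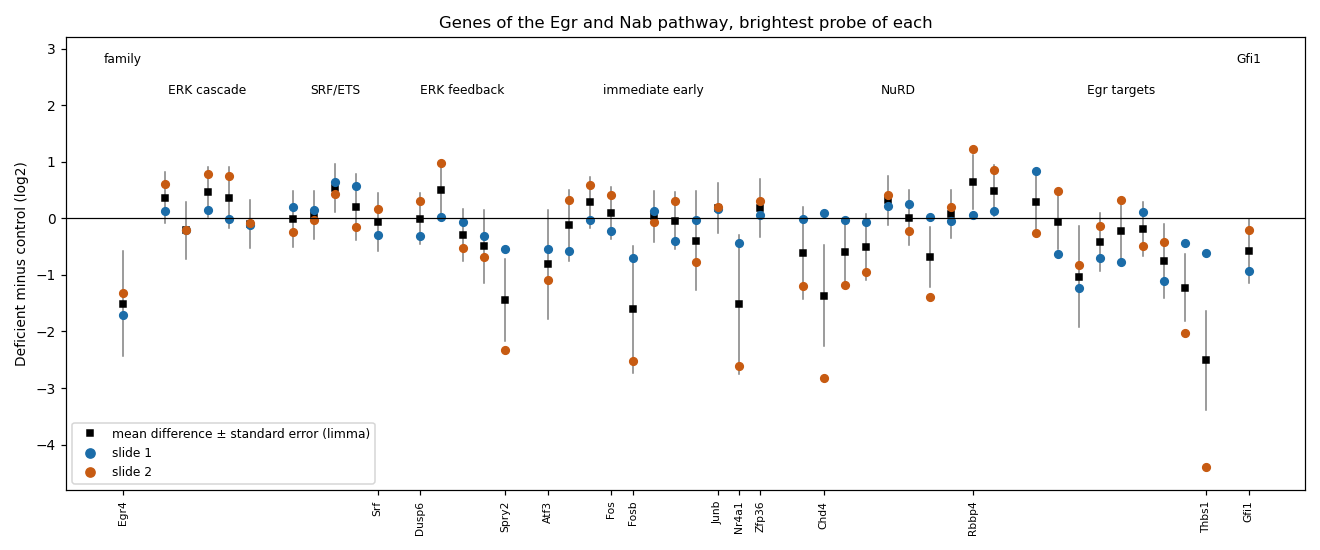
Difference between deficient and control cells (log2) for the brightest tested probe of each of 47 pathway genes, grouped by role, with squares and bars for the mean difference and its standard error from limma and circles for slide 1 (blue) and slide 2 (orange). Genes described in the text are labelled, and 2 of the 49 tested genes are not reported here. Thbs1, Fosb, Nr4a1 and Spry2 lie further below 0 on slide 2 than on slide 1, and Chd4 lies below 0 on slide 2 only (0.085 on slide 1). Other genes do not all share this order (Gfi1, -0.94 on slide 1 and -0.21 on slide 2). The slide 2 values of Egr4, Mkl2 (unlabelled) and Thbs1 rest on a deficient array not well above background.

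The genes whose pattern over the 4 arrays was closest to that of Egr1 were sought among 18860 probes well above background on all arrays, by the root mean square distance between values centred on their own mean. The nearest 4 were Cntln, Phf3, Cast and Arid4a, at distances of 0.053 to 0.073. Cntln, a centriole protein, gave -0.031 and -0.93 in control and -0.19 and -2.96 in deficient cells, low like Egr1 on the second deficient array. No such genes are given for Egr2, whose level the second deficient array did not measure.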

How the data were processed

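LSK cells were sorted from bone marrow, and amplified RNA of 2 pools per genotype was labelled with Cy3 and hybridized, 1 pool per array. The deposited intensity values are the scanner software's processed signals, made by the authors with Agilent Feature Extraction (version 9.5.3.1 per the file headers, 9.1 per the labels): background-subtracted, with surrogates for spots not above background, and not scaled between arrays. The authors' value table holds the same signals to within 0.496%, and was used as an alternative.

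Control and outlier spots were left out, the 75th percentile of each array was subtracted on the log2 scale, and spots of one probe were averaged. A probe entered the test (22007 did) if it had a value on all 4 arrays and both arrays of either genotype flagged it well above background, with limma 3.58.1 in R 4.3.3 on genotype alone. The criteria (more than 2-fold and p under 0.01 before adjustment) follow the study's methods, and adjusted p is Benjamini-Hochberg over all tested probes. An exact two-sided permutation test of 2 against 2 arrays cannot go below p = 0.333. The number of arrays limits the precision. The p-values measure only the spread between arrays of a genotype, in which pool, slide and scan cannot be told apart. On simulated data the fit recovered 91% of 200 probes changed by 3 log2 units, and called 192 unchanged probes, beside 162 probes called in the real data. The simulated arrays were independent, with equal spread in both genotypes and no slide effect, unlike the real ones. Same-numbered arrays share a slide and a scan, and their deviations correlated at 0.266, so the replicate number was also used as a block.

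A value "at least N-fold" replaces the deficient array's dim signal by the higher of its own and the lowest signal well above background there. Using it per slide, or with 1 dim array of 2, was decided after seeing the data. A probe not well above background can truly lie above that lowest signal, so such a value is not a strict minimum. The text names all probes of the 5 genes, Egr4, Wt1, Meis1, pathway genes meeting the criteria, the brightest gene of each role group and the patterns nearest to Egr1, and otherwise says so. Patterns nearest to Egr2 are left out, since 1 of its arrays was below the limit. Some genes that this rule names are not reported here. The members and lists were chosen with earlier results of these data known. Alternatives were median and quantile scaling, normexp, the authors' table, other filters, outlier spots kept, the slide block, the methods' t-test, each array left out and, chosen after seeing the data, no scaling. Of 27156 RefSeq accessions on the array, 26686 matched the gene table.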

Additional observations from a re-analysis of the deposited data

How the results depend on the processing

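Differences of the 7 Egr and Nab probes kept their sign with median scaling, quantile scaling, the authors' table, outlier spots kept and no scaling. With normexp, Nab2 turned to 0.10, Egr2 came to -1.81, Egr3 came to -0.056 (A_51_P437198) and -0.59 (A_52_P440836) and Nab1 A_52_P318438 to -0.46, which was -0.45 with quantile scaling. With no scaling, chosen after seeing the data, Nab1 came to -0.56 (A_52_P301724) and -0.64 (A_52_P318438) and Nab2 to -0.86. With each array left out in turn, Egr1 ranged from -2.51 to 0.39, Egr2 from -6.75 to -1.36, Egr3 from -3.06 to -1.84 (A_51_P437198) and from -4.45 to -1.29 (A_52_P440836), Nab1 from -0.37 to 0.0015 (A_52_P301724) and from -0.38 to -0.15 (A_52_P318438), and Nab2 from -0.57 to -0.39. The highest values of Egr1 and Nab1 A_52_P301724 came without deficient replicate 2. In the pathway list, the replicate block gave 1 lower probe and no filter on dim probes 1, and leaving out arrays gave 0 to 9 lower and 0 to 1 higher. Over all tested probes, against 132 lower and 30 higher, normexp gave 45 and 2, the filter on all 4 arrays 43 and 10, the replicate block 307 and 130 (50 with an adjusted p under 0.05) and the methods' t-test 23 and 7, while no filter gave 100 higher and no scaling 14 higher. Leaving out arrays gave 57 to 1705 lower and 34 to 510 higher, the most of each without deficient replicate 1. In these fits the spread comes from the genotype with both arrays, and is taken to hold for the single array. The causes were not tested. Signal near background limits the Egr3 and Nab2 probes and the second deficient array for Egr2.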
